A study of Mus musculus with 25 samples.

Results

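Of the 22439 genes in the deposited single-cell count matrices, 6 are described here: the nucleotide receptors P2ry12, P2ry13 and P2ry6, the lipid receptor Gpr34, and the ATP-gated channels P2rx4 and P2rx7. They were taken by symbol, and each has a row in every matrix. The matrices hold 30958 myeloid cells from 25 libraries of droplet-based single-cell RNA sequencing, sorted from a 5 mm piece of injured mouse spinal cord or, in controls, from cord after laminectomy, the operation that opens the bone without injuring the cord. Libraries came from controls (Ctrl, 2 libraries) and from 1 day (D1, 5 libraries), 2 days (D2, 4), 3 days (D3, 7), 10 days (D10, 5) and 21 days (D21, 2) after injury. Each library held tissue of 1 to 3 mice, male or female, and the labels give no age. The 12 mixed libraries hold YFP+ cells of Cx3cr1CreERT2 mice, which carry an inducible Cre recombinase under the Cx3cr1 promoter, active in microglia and in many monocytes. The 5 resident (RFP+/YFP+) and 7 infiltrating (RFP-/YFP+) libraries come from Cx3cr1CreERT2:R26tdTomato mice, in which a red reporter marks the recombined cells. Sort and strain therefore split the libraries in the same way, and every mouse, controls included, carried Cx3cr1CreERT2. One D3 library had a title and a sort label that disagree and was left out of the comparisons, group levels and cluster levels. Day 2 is given in the sample labels and not in the text on the study's design.

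P2Y receptors are G protein-coupled receptors for nucleotides that leave damaged or active cells. P2Y12 and P2Y13 bind ADP and act through Gi proteins, and P2Y12 steers microglial processes towards injury, while P2Y6 binds UDP, acts through Gq and promotes phagocytosis. GPR34 is a Gi-coupled receptor for lysophosphatidylserine, and P2X4 and P2X7 are cation channels opened by ATP, the latter at high concentrations and upstream of the NLRP3 inflammasome. P2ry12, P2ry13 and Gpr34 are widely used as transcripts that mark microglia of the uninjured central nervous system.

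Library totals ranged from 486649 to 33204422 unique transcript counts (UMIs), and the libraries from 155 to 3800 cells with medians of 1577 to 11233 UMIs per cell. Each cell carries a deposited cell type code without a name, and the codes were named here from marker genes, which gave 13289 microglia, 12841 macrophages, 2712 dendritic-like and 2116 neutrophil-like cells in all libraries. All 10 microglia markers checked, a list without the members, were highest in the cells coded microglia, 7 of 9 macrophage markers in those coded macrophages, 8 of 8 dendritic cell markers and 7 of 7 neutrophil markers in the other two codes. Libraries D3_mixed 1 and D3_mixed 2 stand apart: they share a sequencing pool with no other library and have the lowest totals. Across libraries 127 cell barcodes occur more than once. The level of a member is its count scaled to the UMIs (CPM) of all cells of a cell type in a library, for sums of at least 20 cells. Microglia were described in 17 sums, from the mixed and resident libraries, and macrophages in 15, from the mixed and infiltrating libraries. No label says that libraries of a group came from separate animals, so p-values measure the spread between libraries, which may in part be technical.

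P2ry12 (ENSMUSG00000036353) and P2ry13 are neighbours on the minus strand of mouse chromosome 3. In GENCODE M21 on GRCm38, P2ry13 lies at chr3:59207892-59210882 and P2ry12 at chr3:59216272-59262871, with 5389 bases between them, and both lie within Med12l, a gene of the Mediator complex on the opposite strand. Gpr34 (chrX:13632089-13640858, plus strand) lies within Cask on the opposite strand, and P2ry6 lies at chr7:100937630-100974649 on the minus strand. P2rx7 (chr5:122643911-122691432) and P2rx4 (chr5:122707544-122729738) are neighbours on the plus strand, 16111 bases apart. Exons of P2ry12 overlap exons of Med12l, while those of P2ry13 do not, and those of Gpr34 do not overlap exons of Cask. Cell Ranger, the tool named in the submitters' processing notes, by default counts reads on the strand of the gene, but the settings used are not given in the sources used here. The 250 bases before the RefSeq starts of the ADP receptor pair (GRCm38.p6, minus strand, P2ry12 at chr3:59262986-59263235 and P2ry13 at chr3:59210883-59211132) are shown because these genes lie side by side and both fell in microglia after injury, each printed 5' to 3' along the gene, with the motif AGGAAG in capitals.
P2ry12 upstream: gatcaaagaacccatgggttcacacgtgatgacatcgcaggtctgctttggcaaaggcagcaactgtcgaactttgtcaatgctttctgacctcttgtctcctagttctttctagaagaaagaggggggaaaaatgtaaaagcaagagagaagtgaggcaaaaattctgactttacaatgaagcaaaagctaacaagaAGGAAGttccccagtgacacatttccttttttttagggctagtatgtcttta
P2ry13 upstream: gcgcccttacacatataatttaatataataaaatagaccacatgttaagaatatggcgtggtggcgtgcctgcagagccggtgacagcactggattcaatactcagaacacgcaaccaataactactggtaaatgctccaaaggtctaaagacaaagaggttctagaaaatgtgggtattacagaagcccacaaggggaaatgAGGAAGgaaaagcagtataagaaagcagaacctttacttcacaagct
Each window holds AGGAAG once. The motif, which contains the GGAA core bound by ETS family factors such as the myeloid factor PU.1, was chosen after the sequences were seen. Searched on both strands (as AGGAAG and CTTCCT), it occurs in 9686 of 32851 RefSeq windows of the same length, or 29.5%. Of the windows before the 2 RefSeq starts of P2rx7, 1 holds the motif, and the window of P2rx4 holds none. Windows of P2ry6 and Gpr34 were not used here.

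P2ry12 in microglia was high in both controls and low at D1 in every library. Its level was 3590.3 CPM in Ctrl_mixed 1 and 1420.3 in Ctrl_resident 1, against 122, 98.0 and 76.1 CPM in the 3 D1 libraries (D1_mixed 1, 2 and 3). At D2 it was 145 and 207 CPM in the mixed libraries and 253 in the resident library. All D1 and D2 libraries lay below both controls, and the D1 mean of 98.8 ± 23.1 CPM (SD, n = 3) was 3.94% of the control mean of 2505 ± 1534 (SD, n = 2). At D3 the levels were 643, 714 and 329 CPM in D3_mixed 1, 2 and 3 and 165 and 193 in the 2 resident libraries. At D10 they were 468 and 505 CPM in the mixed libraries and 271 in the resident one, and the only D21 library had 250.1. All D3 and D10 libraries lay above all D1 libraries and below both controls.

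P2ry13 encodes the other ADP receptor. Its level was 465 and 305 CPM in the mixed and resident controls and 52.3, 62.7 and 50.1 CPM in D1_mixed 1, 2 and 3, where the mean was 14.3% of that of the controls. At D2 it was 66.2 and 104 CPM in the mixed libraries and 102 in the resident one, and at D3 it was 117, 123 and 52.2 CPM in the mixed and 109 and 111 in the resident libraries. The D3 library at 52.2 CPM, D3_mixed 3, sat among the D1 values, so D3 and D1 overlapped, while D2 and D3 lay below both controls. At D10 the levels were 87.4, 114 and 84.7 CPM in D10_mixed 1, D10_mixed 2 and D10_resident 1, or 24.8% of the control mean, and at D21 72.0 CPM. D10 was thus above D1 in every library and still below both controls.

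P2ry6, the UDP receptor, had its lowest mean at D3. Its level was 545 and 653 CPM in the controls, then 227, 235 and 168 at D1, and 157, 178 and 225 at D2 (D2_mixed 1, D2_mixed 2 and D2_resident 1). At D3 it was 144, 122 and 262 CPM in the mixed and 135 and 69.3 in the resident libraries. The lowest mean was therefore at D3, 146 ± 70.6 CPM (SD, n = 5) or 24.4% of the control mean, rather than at D1 (35.0%). However, D3 and D1 overlapped, and D3_mixed 3, at 262 CPM, lay above every D1 library. At D10 the levels were 229, 263 and 293 CPM and overlapped those at D1, and at D21 the level was 164.

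Gpr34, the lysophosphatidylserine receptor, was lowest at D1 and, after injury, highest at D10. Controls had 2428 (mixed) and 1564 (resident) CPM, and D1 libraries had 486, 209 and 93.5 CPM. The D1 libraries spread widely, with D1_mixed 1 highest and D1_mixed 3 lowest, and their mean was 13.2% of the control mean. Levels were 399, 637 and 702 CPM at D2, and 524, 576, 386, 683 and 556 at D3. At D10 they were 831, 842 and 887 CPM in D10_mixed 1, D10_mixed 2 and D10_resident 1, the narrowest spread of any time point (853 ± 29.8, SD, n = 3), and at D21 602. The D10 libraries lay above every D1 and D3 library and below both controls, at 42.7% of the control mean.

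Of the channels, P2rx4 was the one whose D10 libraries overlapped the controls. Controls had 133 and 173 CPM and D1 libraries 90.6, 62.7 and 54.3. At D2 the levels were 50.1, 22.2 and 99.2 CPM, the second from only 3 counts in 23 cells of D2_mixed 2, and at D3 they were 74.2, 72.6, 99.3, 111 and 83.8. All of these lay below both controls. At D10 the levels were 151, 177 and 177 CPM and at D21 152, which overlapped the controls. P2rx7 had 105 and 92.2 CPM in the controls and 19.7, 15.7 and 18.3 at D1, 18.1% of the control mean. It had 21.1, 22.2 (again 3 counts) and 39.0 CPM at D2 and 22.7, 16.9, 38.4, 57.6 and 28.9 at D3. At D10 the levels of 39.6, 45.8 and 35.0 CPM lay above all D1 libraries and below both controls, and D21 had 27.2.

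**Figure D1:**
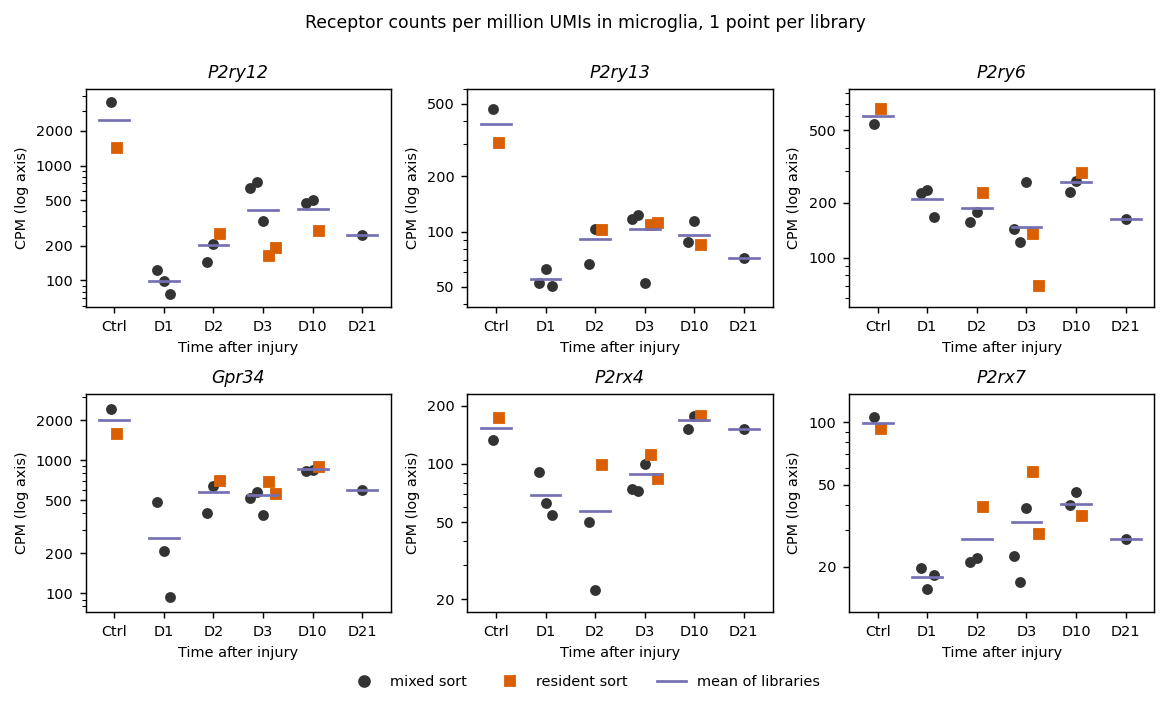
Level of each member in microglia (y axis, CPM on a log scale) by time point (x axis). Each point is the sum of the microglia of 1 library, with mixed and resident libraries marked, and the bar is the group mean. P2ry12 falls from a control mean of 2505 CPM to 98.8 at D1, and P2rx4 at D10 (151 to 177 CPM) overlaps the controls (133 and 173).

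Changes against controls were tested on the summed counts of all genes with edgeR's quasi-likelihood test, with terms for time point and for the sex of the mice that the labels give, Benjamini-Hochberg adjustment over the 10801 genes tested and a threshold of 0.05. Levels in CPM divide by all UMIs, while the fit also scales each sum by TMM, whose factors were 1.38 and 1.46 in the controls and 0.843 to 0.905 at D1. Without that scaling the median change of all genes against controls was -0.73 on the log2 scale at D1 and, at the later time points in order, -0.40, -0.62, -0.60 and -0.94, and relative to these medians the members changed by nearly the same amounts as with TMM (P2ry12 at D1 by -4.35 and -4.36). At D1, P2ry12 fell by 4.36 on the log2 scale (SE 0.60, edgeR adjusted p 3.73e-05), Gpr34 by 2.16 (SE 0.47, 0.00127), P2ry13 by 2.12 (SE 0.36, 0.000182) and P2rx7 by 1.69 (SE 0.37, 0.00147). P2ry6 (-0.84, SE 0.37, 0.0706) and P2rx4 (-0.45, SE 0.36, 0.323) did not pass, and P2rx4 ranged from -1.17 to 1.22 over the alternatives, higher with mixed libraries alone. Thus 4 of 6 members were called, all lower, where 46.6% of all genes tested were called and 22.7% were called lower, and the members' median change was -1.91 against -0.01 for all genes. Of the genes called at D1, 51.2% were higher with TMM and 22.6% with library totals alone. By library totals alone all 6 members were called lower, as were 4383 of the 10801 genes tested, against 2457 with TMM. With mixed libraries alone, which leaves 1 control library, only P2ry12 was called, while P2ry13 (-2.73, edgeR adjusted p 0.0552), Gpr34 (-2.90, 0.1) and P2rx7 (-1.63, 0.313) were as low or nearly as low as with both controls but did not pass. No sequencing pool held both control and D1 libraries, so the effects of pool and injury cannot be told apart in this comparison. The 3 D1 libraries came from male mice, Ctrl_mixed 1 from female and Ctrl_resident 1 from male mice.

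At D2 and D3 all members but P2rx4 were called lower than in controls. At D2, P2ry12 fell by 3.53 (edgeR adjusted p 0.000288), P2ry13 by 1.78 (0.00148), Gpr34 by 1.42 (0.0255), P2rx7 by 1.33 (0.0137) and P2ry6 by 1.32 (0.0116), so that 5 of 6 members were called where 29.7% of genes were called and 12.2% lower. At D3 the same 5 members were called, P2ry12 by -2.41 (0.00184), P2ry6 by -1.49 (0.00201), P2ry13 by -1.36 (0.00295), Gpr34 by -1.25 (0.0211) and P2rx7 by -0.99 (0.0273), where 37.6% of genes were called, 17.6% lower and 20.1% higher. P2rx4 was at -0.82 (0.091) and -0.22 (0.622). With library totals alone the share of higher genes among those called went from 59.1% to 32.6% at D2 and from 53.3% to 22.9% at D3. Without Ctrl_mixed 1, which leaves 1 control library, only P2ry12 remained called at D2 and only P2ry6 at D3. Some of the changes that lost the call stayed about as large, such as P2ry6 (-1.39, edgeR adjusted p 0.0736) and P2rx7 (-1.24, 0.113) at D2 and P2rx7 at D3 (-0.90, 0.158). P2ry13 (-1.32, 0.0575) and Gpr34 (-1.07, 0.22) at D2, and P2ry13 (-0.92, 0.092) and Gpr34 (-0.91, 0.215) at D3, were smaller, and P2ry12 at D3 was at -1.09 (0.112). Without Ctrl_resident 1, P2ry6 (-1.23, 0.0909) and P2rx7 (-1.42, 0.0587) lost the call at D2 and Gpr34 (-1.60, 0.0511) and P2rx7 (-1.07, 0.117) at D3. Without D2_mixed 1, P2ry6 (-1.23, 0.0854), Gpr34 (-1.07, 0.204) and P2rx7 (-0.96, 0.163) lost it at D2. With sequencing pool as a term 3 members were called at D2 and none at D3, where P2ry13 was about as low (-1.48, 0.141), while P2ry12 was at -0.83 (0.434), P2ry6 at -0.23 (0.879), Gpr34 at -0.90 (0.762) and P2rx7 at 0.16. With mixed libraries alone none was called at D3, with P2ry12 at -2.37 (0.0797), P2ry13 at -2.11 (0.157) and Gpr34 at -2.14 (0.259), as large or nearly as large as with all libraries. P2rx4 had no stable direction at D3, from -0.80 to 1.31 over the alternatives.

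At D10, 2 of 6 members were still called lower than controls, P2ry12 (-2.29, SE 0.55, edgeR adjusted p 0.0106) and P2ry13 (-1.44, SE 0.33, 0.0089), where 10.3% of genes were called, 2.22% lower and 8.06% higher. P2ry6 (-0.62, 0.303), Gpr34 (-0.62, 0.428), P2rx7 (-0.69, 0.246) and P2rx4 (0.72, 0.228) did not pass. Controls and D10 libraries shared 2 pools, which allows the same comparison within a pool. In one, Ctrl_mixed 1 had 3590.3 CPM of P2ry12 and D10_mixed 1 and 2 had 468 and 505. In the other, Ctrl_resident 1 had 1420.3 CPM, D10_resident 1 271 and D2_resident 1 253. P2ry13 was 465 against 87.4 and 114 CPM in the first pool, and 305 against 84.7 (D10) and 102 (D2) in the second. Gpr34, P2ry6 and P2rx7 were also below the control of their pool in each D10 library. Each pool held a single control library, whose sex differed from that of its D10 libraries. Ctrl_mixed 1 was female and D10_mixed 1 and 2 male, while Ctrl_resident 1 was male and D10_resident 1 female. With pool as a term 2404 of 10801 genes were called at D10, against 1111 without it. The 5 members called were P2ry12 (-2.08, edgeR adjusted p 1.41e-05), P2ry13 (-1.46, 0.000156), P2rx7 (-0.77, 0.0134) and P2ry6 (-0.57, 0.037), lower, and P2rx4 (0.77, 0.0353), higher. Neither ADP receptor passed without Ctrl_mixed 1 (P2ry12 -0.88, 0.487; P2ry13 -0.99, 0.245) or without D10_resident 1 (-2.08, 0.098; -1.34, 0.0737), and with library totals alone 4 members passed. With mixed libraries alone, which leaves 1 control library, P2ry12 (-2.58, 0.15) and P2ry13 (-2.03, 0.323) were larger changes but did not pass. The share of higher genes among all called went from 78.4% to 18.6% with library totals alone. That setting called 2655 of 10801 genes, 2161 of them lower.

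At D21, with a single library of microglia that the fit takes to vary like the other groups, none of the 6 members passed (edgeR, against 6.98% of all genes, 0.861% lower and 6.12% higher), and P2ry12 (-2.34, edgeR adjusted p 0.0807) and P2ry13 (-1.54, 0.0639) came closest, 2 members having an unadjusted p under 0.05. Of all genes 21.1% had an unadjusted p under 0.05 there, and DESeq2 called these 2 members, which edgeR did not. All of the comparisons against Ctrl share the same 2 control libraries and are not independent of each other. The share of higher genes went from 87.7% to 14.7% of those called at D21 with library totals alone.

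**Figure D2:**
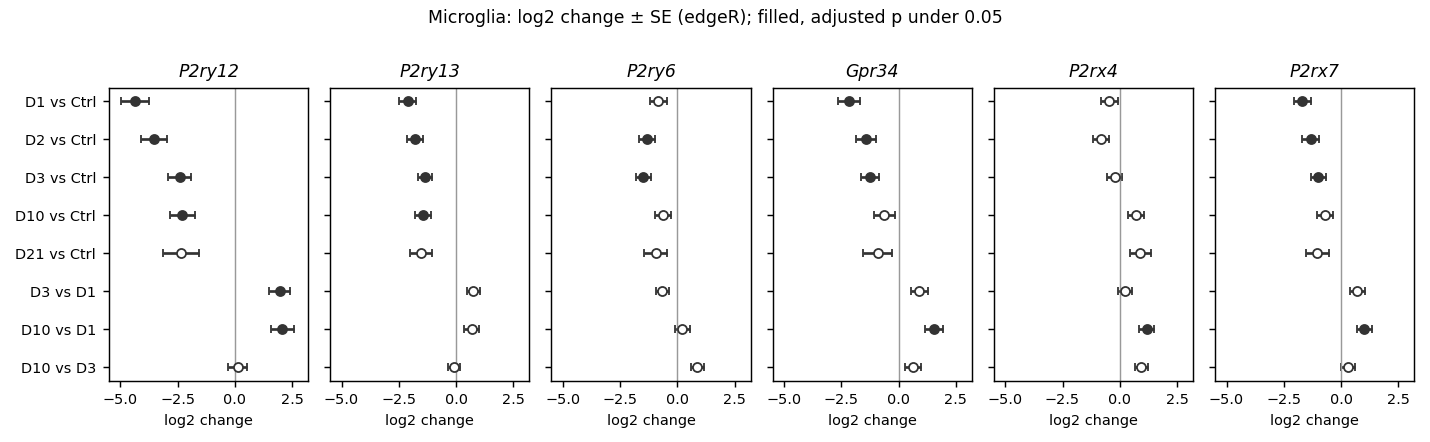
Log2 change of each member in microglia (x axis, 1 panel per member) in the comparisons of the fit (y axis), with bars of 1 SE and filled points for an edgeR adjusted p under 0.05. At D1 against controls P2ry12 is at -4.36 and P2rx4 at -0.45, and at D10 against D1 P2ry12 is at 2.07 and P2ry6 at 0.22.

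Recovery from D1 was tested directly, and the comparisons at D3 and D10 share the D1 libraries. At D3 only P2ry12 was higher than at D1 (1.96, SE 0.45, edgeR adjusted p 0.00658), where 18.8% of all genes were called and 8.62% higher. P2ry13 (0.76, 0.0707), Gpr34 (0.91, 0.0951) P2rx7 (0.71, 0.129), P2ry6 (-0.65, 0.127) and P2rx4 (0.23, 0.626) did not pass. Several of these lay near the threshold. Without D3_mixed 3, P2ry13 was called higher at D3 than at D1 (0.96, 0.00959) and P2ry6 lower (-1.004, 0.01). Gpr34 was called higher without D1_mixed 1 (1.64, 0.00549) and P2rx7 without D3_mixed 2 (0.91, 0.0413). DESeq2 called P2ry13 higher too (0.83, DESeq2 adjusted p 0.0296). Without D3_mixed 1 and 2, the libraries that stand apart, P2ry12 was 1.20 higher (0.0237) and P2rx7 passed as well (1.04, 0.0163), an alternative chosen after the data were seen. At D10, 4 of 6 members were higher than at D1, where 33.7% of genes were called and 17.7% higher: P2ry12 (2.07, SE 0.49, 0.00414), Gpr34 (1.55, SE 0.41, 0.00859), P2rx4 (1.17, SE 0.32, 0.0109) and P2rx7 (1.01, SE 0.33, 0.026). P2ry13 (0.67, 0.0982) and P2ry6 (0.22, 0.638) did not pass, although all 3 D10 libraries of P2ry13 exceeded all 3 D1 libraries. The members' median change was 1.09 against 0.07 for all genes.

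P2ry12 and Gpr34 passed at D10 against D1 under all 30 alternatives run, with changes of 1.88 to 2.31 and 1.10 to 2.26. P2rx7 lost the call without D1_mixed 1 (1.01, edgeR adjusted p 0.0643), D1_mixed 2 (0.89, 0.104), D1_mixed 3 (0.99, 0.0553), D10_mixed 1 (0.96, 0.0846) or D10_mixed 2 (0.81, 0.142), and P2rx4 without D1_mixed 2 (1.08, 0.0546) or D10_mixed 2 (1.09, 0.0583). In these fits, each with 1 library fewer, P2rx7 was thus 0.81 to 1.01 against 1.01 with all libraries, and P2rx4 1.08 and 1.09 against 1.17. No pool held microglia of both D1 and D10, so these effects cannot be told apart there either. Between D3 and D10 no member passed in edgeR, where 6.88% of genes did (2.96% higher and 3.92% lower), and P2rx4 (0.94, edgeR adjusted p 0.0534) and P2ry6 (0.87, 0.0747) came closest. Those 2 had an unadjusted p under 0.05, as did 26.6% of all genes, and DESeq2 called both. With library totals alone the share of higher genes among those called moved from 45.9% to 60.8% at D3 and from 52.4% to 62.4% at D10 against D1, and the median of all genes to 0.16 and 0.21.

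Resident and mixed libraries were compared with time point as a term. No member passed, where 0.148% of genes did, 0.139% higher and 0.00926% lower in resident libraries. P2ry12 had the largest difference, 0.84 lower in resident libraries on the log2 scale (SE 0.28, edgeR adjusted p 0.719). It was the 1 member with an unadjusted p under 0.05, as had 4.56% of all genes. Resident libraries were the lower ones for P2ry12 at Ctrl, D3 and D10, and the higher one at D2. DESeq2 called no member either.

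The loss was also seen in the share of microglia with at least 1 UMI of a member, after each cell was thinned to 1500 UMIs, which left out 5 shallower cells of controls, 317 of D1, 176 of D2, 610 of D3 and 325 of D10. For P2ry12 this share was 89.6 ± 11.6% in controls (SD, n = 2), 12.2 ± 1.97% at D1 (n = 3), 23.2 ± 5.88% at D2 (n = 3), 33.7 ± 12.5% at D3 (n = 5) and 34.6 ± 6.65% at D10 (n = 3). For Gpr34 it was 88.7 ± 7.32% in controls, 25.7 ± 15.8% at D1 and 58.8 ± 2.16% at D10. The share for P2ry12 in neutrophil-like cells, chosen beforehand as a type expected to lack it, was 3.21 to 8.33% and in dendritic-like cells 0 to 5.71%. In the test given below P2ry12 was 2.26 higher in neutrophil-like cells than in macrophages, so this share is no measure of background. None of the neutrophil-like or dendritic-like sums came from the D1_mixed libraries that gave the D1 microglia, with shares of 10.2 to 14.1%. Macrophages of D1_mixed 1 and 3 had shares of 4% (1 of 25 cells) and 7.69% (4 of 52). These shares come from few cells, which are not replicates, and were not tested. By level, P2ry12 was at 21.2 CPM in macrophages against 122 in microglia of D1_mixed 1. In D1_mixed 3 it was at 26.8 against 76.1. Gpr34 had no UMI in the thinned neutrophil-like cells of 4 libraries. Median UMIs per cell before thinning were 1577 to 3963 in microglia, 1918 to 2871 in neutrophil-like and 3449 to 13112 in dendritic-like cells. Without thinning the share for P2ry12 was 24.8% at D1 and 47.6% at D10. At D10 the shares were 12.3 ± 1.77% for P2ry13, against 41.5 ± 9.36% in controls, and 19.4 ± 2.05% for P2rx4, against 19.6 ± 3.31%.

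The deposited clusters divide the microglia further. How they were made is not given in the sources used here, and since they come from these cells' own expression, their levels are a description without a test. Cluster 1 holds all 1887 control cells and no others, with 3050.5 CPM of P2ry12, 425 of P2ry13 and 2213 of Gpr34. Of the other microglial clusters, cluster 4 (1377 cells, 891 of them from D10) had the highest pooled level of all 6 members: 581 CPM of P2ry12, 126 of P2ry13, 1021 of Gpr34, 373 of P2ry6, 207 of P2rx4 and 63.7 of P2rx7. Its pooled P2rx4 level was above the 143 CPM of cluster 1, but at D3 its mean was 122. At D2, D3, D10 and D21 taken singly the order held for 5 members, while for P2ry13 cluster 7 was higher at D2 (132.5 against 126.5 CPM) and cluster 3 at D3 (138 against 133). Cluster 2 (1909 cells, 960 of them from D1) had the lowest pooled level of each member, with 47.1 CPM of P2ry12, 143 of Gpr34 and 11.6 of P2rx7, and also the fewest UMIs per cell, 2167. Within time points its mean was the lowest for P2ry12, Gpr34 and P2ry6 but not always for the others, as for P2rx4 at D2 (67.2 CPM against 53.8 in cluster 6) and P2rx7 at D3 (18.5 against 11.8 in cluster 5). Cluster 5, which holds 2316 D1 cells, had 125 CPM of P2ry12 and 373 of Gpr34. Within clusters the order of time points differed. In cluster 2 Gpr34 was 48.4 to 227 CPM at D1 and 249 to 273 at D10, so it was higher at D10 in every library, whereas P2ry12 was 16.8 to 44.6 at D1 and 15.6 to 58.5 at D10 and overlapped. In cluster 5 P2ry12 was 85.1 to 127 CPM in 3 D1 libraries and 164 and 280.2 in 2 D10 libraries, so it did not overlap.

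**Figure D3:**
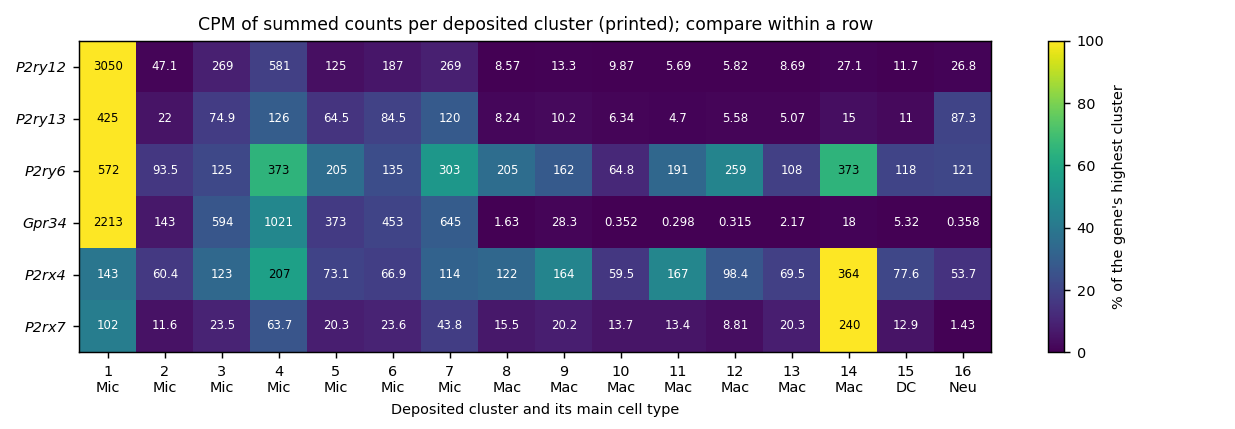
Level of each member (rows) in the 16 deposited clusters (columns), printed in CPM and coloured as the percent of the highest cluster of that member. P2ry12, P2ry13, P2ry6 and Gpr34 peak in cluster 1, the control microglia (3050.5 CPM of P2ry12), P2rx4 and P2rx7 in cluster 14 (364 and 240.5, all its cells pooled), whose P2rx7 was 374 CPM in D2_resident 1 and 0 in D3_infiltrating 1.

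Cluster 14 is a small cluster of cells coded macrophages. Its 111 cells, 24 of them from D1, 52 from D2 and 32 from D3, had 240.5 CPM of P2rx7 (80 counts), 364 of P2rx4 and 373 of P2ry6 when pooled, against 8.81 to 20.3 CPM of P2rx7 in macrophage clusters 8 to 13. Only 2 libraries held at least 20 of its cells: D2_resident 1 gave 50 of the 80 counts (374 CPM of P2rx7 in 49 cells), and D3_infiltrating 1 had 0 counts in 23 cells. The pooled P2rx7 level thus rests largely on 1 library, while P2rx4 was 501 and 555 CPM in the same 2 libraries. Its 2997 UMIs per cell were the fewest of any macrophage cluster.

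Macrophages and microglia of the same library were then compared in 14 libraries that held at least 20 cells of each, with the library as a block. From D1 to D3 (8 libraries) 4 of 6 members differed, where 38.9% of genes did, 21% lower and 17.9% higher in macrophages. Lower in macrophages, on the log2 scale, were Gpr34 (-6.47, SE 0.51, edgeR adjusted p 1.56e-08), P2ry12 (-4.39, SE 0.40, 7.78e-08) and P2ry13 (-3.62, SE 0.32, 5.52e-08), each in 14 of 14 libraries when later time points are included. P2rx4 was higher in macrophages by 0.93 (SE 0.24, 0.00519), in 8 of 8 early libraries. P2ry6 (0.01, 0.986) and P2rx7 (-0.21, 0.594) did not pass. At D10 (4 libraries) 4 members were again called, where 12.5% of genes were and 6.48% lower: P2ry12 (-3.59, 7.72e-05), Gpr34 (-3.55, 0.00042), P2ry13 (-2.54, 0.000409) and P2ry6 (-1.18, 0.0314). P2rx4 was at -0.40 (0.533). P2ry6 lost this call without D10_mixed 1 (-0.98, 0.227) or D10_mixed 2 (-0.78, 0.318), without clusters 6, 7 and 10 (-0.57, 0.269) and at equal depth (-0.92, 0.197).

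The difference between cell types changed with time for 1 of 6 members, where 10.7% of genes changed and 7.42% upwards. For Gpr34 the gap narrowed by 2.92 (SE 0.74, edgeR adjusted p 0.0162) from the early libraries to D10. P2rx4 (-1.33, 0.0537) and P2ry6 (-1.18, 0.076) did not pass. The Gpr34 change did not pass with at least 50 cells per sum (1.63, 0.105) or without cluster 2 (1.68, 0.0527). Of the genes called here, 69.3% had a higher macrophage-minus-microglia difference at D10 with TMM and 60.5% with median-of-ratios scaling.

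**Figure D4:**
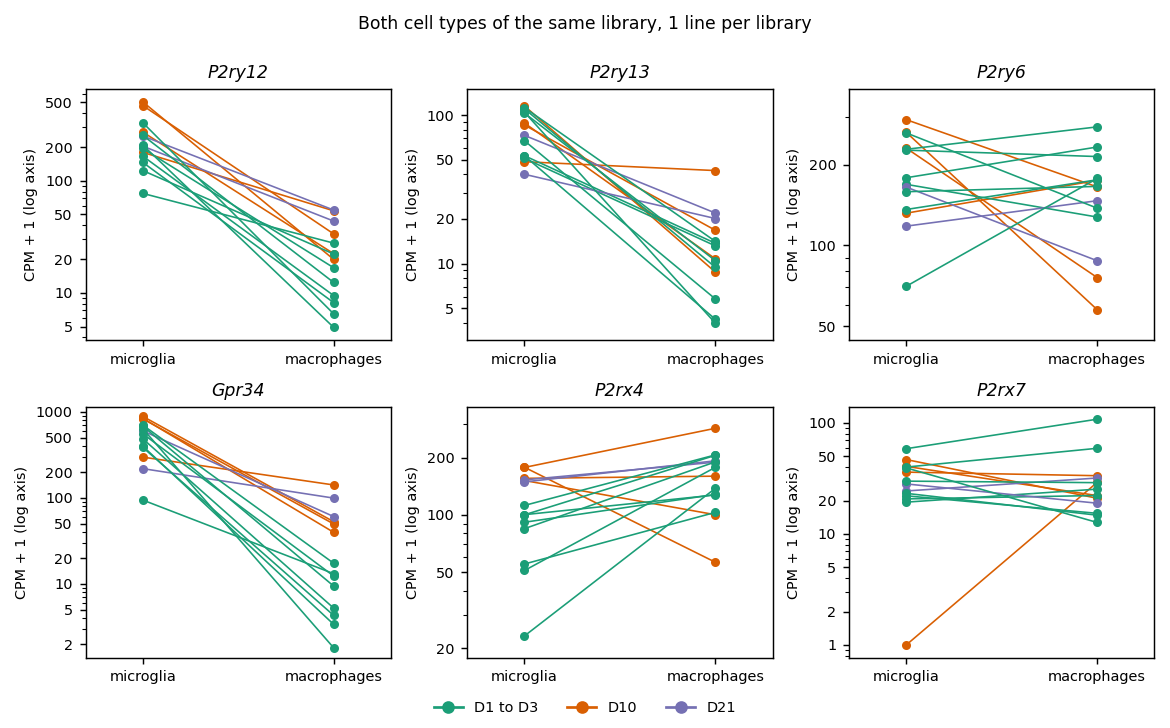
Level of each member (y axis, CPM + 1 on a log scale) in microglia and in macrophages (x axis) of the same library, with 1 line per library coloured by time point (D1 to D3, D10 or D21). P2ry12, P2ry13 and Gpr34 are lower in macrophages in 14 of 14 libraries, and P2rx4 is higher in 12 of 14.

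Among macrophages of the infiltrating and mixed libraries, Gpr34 was at most 12.2 CPM from D1 to D3 and at least 38.8 at D10 and D21. At D1 its level was 0.0661 CPM (1 count) in D1_infiltrating 1, 0 in D1_infiltrating 2, 4.24 (1 count) in D1_mixed 1 and 12.2 (5 counts) in D1_mixed 3. At D2 it was 0, 2.39 and 0.809 CPM and at D3 3.37 and 3.31. At D10 it was 106 and 141 CPM in the infiltrating libraries and 48.8 and 38.8 in the mixed ones, and at D21 98.6 and 59.7, so every D10 and D21 library lay above every D1 library. Macrophages of the resident libraries are not in these sums and had 16.4 CPM (26 counts) in D2_resident 1, 8.44 (3 counts) in D3_resident 1 and 11.4 (13 counts) in D3_resident 2. In cluster 9, 1 library each had 0 CPM at D1 and 52.6 at D2, and 2 libraries had 3.50 and 94.5 at D3. The pooled level was 0.22 CPM from 7 counts at D1 and 93.9 from 578 counts at D10. A count of 0 in D1_infiltrating 2 allows up to 0.187 CPM (3 counts). Such limits cover counting error only. After thinning to 1500 UMIs, 0.481 ± 0.962% of macrophages had a UMI of Gpr34 at D1 (SD, n = 4) and 13.2 ± 4.78% at D10 (n = 4).

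P2ry12 in macrophages was 3.50, 7.68, 21.2 and 26.8 CPM at D1 (D1_infiltrating 1 and 2, D1_mixed 1 and 3) and 35.7, 52.9, 32.5 and 18.9 at D10, which overlapped. At D21 it was 42.7 and 53.8. P2ry13 was 2.58 to 12.7 CPM at D1, 7.76 to 41.3 at D10 and 19.1 and 20.9 at D21. From D1 to D3, P2ry12 in macrophages was 3.50 to 26.8 CPM, against 6.91 to 15.6 in dendritic-like and 21.1 to 36.5 in neutrophil-like cells. No background level was measured, so whether these low levels are expression was not tested. P2ry6 was 213, 186, 275 and 126 CPM at D1 and 231, 174, 74.8 and 56.6 at D10, so the 2 mixed D10 libraries were below every D1 library. P2rx4 was 122, 125, 127 and 102 CPM at D1, and at D10 it spread from 55.5 in D10_mixed 2 to 246 in D10_infiltrating 1. P2rx7 was 7.86 to 24.3 CPM at D1 and 21.2 to 43.9 in 3 of the 4 D10 libraries, with D10_mixed 2 just below them.

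In the fit of macrophages over time, 2 of 6 members were higher at D10 than at D1, where 14.4% of 8577 genes were called, 7.31% higher and 7.04% lower: Gpr34 (7.81, SE 1.38, edgeR adjusted p 0.00372) and P2ry12 (1.80, SE 0.57, 0.0499). P2ry13 (1.70, 0.106), P2rx7 (1.13, 0.0664), P2rx4 (0.22, 0.707) and P2ry6 (-0.53, 0.407) did not pass, but with mixed libraries alone P2ry6 was called lower (-1.43, 0.0261). The infiltrating D1 libraries held 1 count of Gpr34 in all, and with mixed libraries alone the change was 2.39 (0.0223). It passed in all 27 alternatives run. The P2ry12 call did not hold when any 1 library among D1_infiltrating 1, D1_infiltrating 2, D1_mixed 1, D10_infiltrating 1, D10_infiltrating 2, D10_mixed 1, D10_mixed 2, D2_mixed 1 and D21_infiltrating 1 was left out, and in mixed libraries alone P2ry12 was at 0.18 (0.859). Its change was 0.18 to 2.47 over the 26 alternatives run, of which 12 called it. No pool held macrophages of both D1 and D10. These cells also lay in other clusters at each time point. Clusters 8, 11 and 12 held 636, 1750 and 684 cells of D1 and 15, 6 and 9 of D10. Cluster 9 held 54 of D1 and 589 of D10, so the fit compares cells of largely different clusters. At D21 against D1, which shares the D1 libraries, Gpr34 was higher (7.85, SE 1.48, 0.0147), where 3.56% of genes were called, 1.95% higher and 1.61% lower, and P2ry12 (2.43, 0.0662) did not pass. That Gpr34 call did not hold without D1_infiltrating 2 (6.08, edgeR adjusted p 0.0606), nor with pool as a term (1.82, 0.861). It did not hold either without D21_infiltrating 1 (7.76) or with mixed libraries alone, each of which leaves a single D21 library. With library totals alone the share of higher genes among those called at D21 went from 54.8% to 44.4%.

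Microglial transcripts were also counted in these cells. The 10 microglia markers summed to 537 to 1613 CPM in macrophages at D1, 490.2 to 1453 at D2, 931 to 2771 at D3, 1430 to 5273 at D10 and 3148 to 7216 at D21, against 26018 to 27174 in control microglia. Of the defining markers, Sall1 and Slc2a5 were at 0 in the macrophages of both infiltrating D10 libraries, while Tmem119 was at 112 and 164 CPM there and Fcrls at 612 and 689. At D3 the marker sums thus reached into the range of D10, while Gpr34 was at 3.37 and 3.31 CPM. The part of these transcripts in the Gpr34 result was not tested. Clusters 2 and 3 hold both cells coded microglia and cells coded macrophages, and without them Gpr34 was 8.20 higher at D10 (edgeR adjusted p 0.0111) and 8.50 higher at D21 (0.0619), an alternative chosen after the data were seen. In macrophage cluster 9, Gpr34 was 3.50 and 94.5 CPM in 2 libraries at D3 and 46.7 to 296 at D10. In cells of cluster 3 coded macrophages it was 41.1 to 207 CPM at D10.

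**Figure D5:**
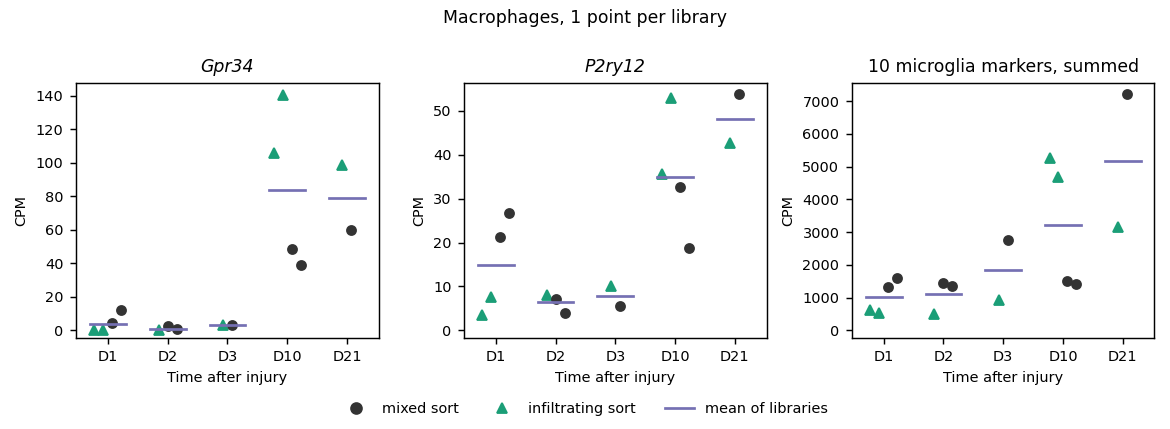
Level of Gpr34, of P2ry12 and of the 10 microglia markers summed in macrophages (y axis, CPM on a linear scale) by time point (x axis). Each point is 1 library, with mixed and infiltrating libraries marked, and the bar is the group mean. Gpr34 lies at 38.8 to 141 CPM at D10, above the 0 to 12.2 CPM at D1, and the summed markers at 1430 to 5273 CPM at D10 against 537 to 1613 at D1.

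No member differed from D1 in macrophages at D2 or D3 in edgeR, where 0% of genes were called. No member had an unadjusted p under 0.05 there, 123 and 612 of all genes did, and DESeq2 called 5 genes at D3 and no member. At D10 against D3, no member passed, where 0.676% of genes did (0.0933% higher and 0.583% lower), and Gpr34 (4.77, SE 1.20, edgeR adjusted p 0.0854) and P2ry12 (2.29, SE 0.65, 0.104) had the largest differences. In that comparison 4 members had an unadjusted p under 0.05, as did 15.5% of all genes, and DESeq2 called P2ry12.

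Dendritic-like cells were compared with macrophages within 9 libraries. Of 5 members tested, 3 were lower in dendritic-like cells, where 41% of genes were called: P2rx4 by 0.96 (SE 0.13, edgeR adjusted p 4.7e-05) in 9 of 9 libraries, P2rx7 by 0.80 (SE 0.18, 0.00263) in 8 and P2ry6 by 0.47 (SE 0.14, 0.0141) in 8. P2ry12 (-0.07, 0.912) and P2ry13 (0.14, 0.802) did not pass. Gpr34 was too low for this test. It was at 0 to 4.65 CPM in dendritic-like cells of 5 of the 6 libraries before D10 and at 14 in D3_mixed 3 (5 counts), at 25.9 and 39.9 in the D10 libraries and at 9.77 at D21. P2ry6 lost its call without D1_infiltrating 1 (-0.41, 0.0514).

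Neutrophil-like cells were compared with macrophages within 4 libraries of D1 and D2. All 5 members tested differed, where 47.6% of genes did and the median of all genes was -0.13. P2ry13 was 3.77 higher in neutrophil-like cells (SE 0.32, edgeR adjusted p 8.81e-07) and P2ry12 2.26 higher (SE 0.36, 0.000192), each in 4 of 4 libraries. P2ry13 was at 61.7, 79.4, 129.8 and 41.6 CPM in D1_infiltrating 1, D1_infiltrating 2, D2_infiltrating 1 and D2_mixed 2, the last from 4 counts, against 2.58 to 10.4 in macrophages of these libraries. P2ry12 was at 29.7, 21.1, 36.5 and 31.2 CPM, the last from 3 counts. Med12l, which overlaps P2ry12 on the opposite strand, was 5.79 higher in neutrophil-like cells (SE 0.41, edgeR adjusted p 1.83e-07). Its part in the P2ry12 values was not tested. The 10 microglia markers summed to 337 to 928 CPM in neutrophil-like cells and to 490 to 1355 in macrophages of the same libraries. P2rx7 (-2.85, 0.00268), P2rx4 (-1.59, 0.00146) and P2ry6 (-0.72, 0.0354) were lower in 4 of 4 libraries. The P2rx7 change rests on 1, 3, 0 and 0 counts in neutrophil-like cells, in the order of libraries above, and ranged from -3.56 to -1.53 over the alternatives. Gpr34 had no count in any of the 4, where 3 counts would correspond to 2.11 to 31.2 CPM. P2ry6 lost the call without D1_infiltrating 1 (-0.65, 0.101), D1_infiltrating 2 (-0.77, 0.106) or D2_mixed 2 (-0.60, 0.105).

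Genes with a pattern like that of each member were listed by Spearman's correlation of log2(CPM + 5) over the 17 microglia sums, which share time point, pool and depth, so the values are a description. P2ry12 was most like Slc40a1, the iron exporter ferroportin (0.98), then Cyb561a3 (0.96), Pld4 (0.95), Myo1f (0.94) and Abtb1 (0.94). Gpr34 was most like Lpcat2 (0.97), Nfkb1 (0.96), Cbfa2t3 (0.95), Cd34 (0.95) and Chn2 (0.94). P2ry13 was most like Abi1 (0.92), Ivns1abp (0.92), Arhgap27 (0.91), Hhex (0.89) and Plcl2 (0.89), and P2ry6 like Orai1 (0.93), Selenos (0.92), Dnajb4 (0.91), Tm2d3 (0.90) and Tnfrsf1a (0.90). P2rx7 was most like Stard9 (0.97), Soga1 (0.97), Pcyox1 (0.96), Uvrag (0.95) and Tut7 (0.95), and P2rx4 like P3h3 (0.92), Cpq, Il10ra, Relb and Tmem131l (0.90 each). Among the members, Gpr34 and P2rx7 were at 0.79, P2ry12 and P2ry13 at 0.76, P2rx4 and P2rx7 at 0.75, and P2ry13 and P2ry6 at 0.01. Without the 2 control libraries, an alternative chosen after the data were seen, P2ry12 and P2ry13 were at 0.65 and P2ry13 and P2ry6 at -0.43.

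The other genes of nucleotide and lysophosphatidylserine signalling were followed in lists drawn up by function, and only genes with enough counts were tested. Of 12 other P2Y and related receptors 4 were tested at D1 against controls. P2ry2, the UTP and ATP receptor, rose by 4.53 on the log2 scale from 0.357 to 6.01 CPM, and P2ry10b (-1.68) and Gpr183, an oxysterol receptor (-1.26), fell. Of 5 other P2X channels only P2rx1 was tested and it did not pass. Of 4 adenosine receptors 3 were tested, of which Adora3 fell (-1.50) and Adora2b was called higher, at 5.24 CPM from 62 counts at D1 against 1 count in the controls. At D10 against D1, P2ry2 (-2.98) and Adora2b (-3.77) fell and Gpr183 rose (1.24), each with an edgeR adjusted p under 0.05. P2ry2 and Adora2b thus moved opposite to P2ry12 in both comparisons, at levels of at most a few CPM.

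Of 20 genes of extracellular nucleotide breakdown and adenosine handling 13 were tested at D1, with 6 higher and 2 lower and a median of 0.77 against -0.01 for all genes, where 46.6% of all genes were called, 23.9% higher and 22.7% lower. Entpd1, the ectonucleotidase CD39 that removes ATP and ADP, fell from 440.5 to 18.4 CPM (-3.86, SE 0.40, edgeR adjusted p 5.17e-06), and Slc29a3 fell (-2.46). Cd38, which breaks down NAD (3.63), and Adk, adenosine kinase (2.26), rose, and Bst1 was called higher, at 2.24 CPM from 27 counts at D1 against 1 count in the controls. At D10 against D1, Entpd1 rose (2.80) and Ada (-3.02), Adk (-1.57) and Slc29a1 (-0.84) were among the 4 that fell, where 33.7% of all genes were called, 17.7% higher and 16% lower. Of 5 release genes 4 were tested, and Slc17a9, the vesicular nucleotide transporter, fell at D1 (-1.71) and rose from D1 to D10 (1.25), while Vdac1 did the opposite (1.78 and -0.90). Of 5 genes of lysophosphatidylserine making and breakdown 4 were tested, and only Abhd6 passed (-0.99 at D1, 0.78 from D1 to D10).

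Of 21 genes of Gi and Gq signalling downstream of P2Y receptors 20 were tested at D1, with 9 lower and none higher and a median of -0.80, where 22.7% of all genes were called lower and 23.9% higher. The largest falls were in Rgs2 (-3.41), Plcb4 (-2.76) and Gnaq (-2.15), and from D1 to D10 the same 3 were the largest of 6 rises (2.39, 1.84 and 1.82). All 9 inflammasome genes downstream of P2rx7 were tested, of which Pycard rose (1.12) and Txnip fell (-1.89) at D1. From D1 to D10 Il1b rose (2.22) and Pycard fell (-0.74). Of 10 genes that overlap or lie near a member, 8 were tested, with 5 lower at D1, among them Fchsd2 beside P2ry6 (-3.29), Igsf10 (-2.88) and Med12l (-2.81), and Anapc5 higher (0.89). Med12l was at 44.8 and 51.5 CPM in controls and 3.42 to 4.81 at D1. From D1 to D10 Igsf10 (3.14) and Fchsd2 (1.87) rose and Relt (-1.61) and Anapc5 (-0.93) fell, and Med12l (1.13, edgeR adjusted p 0.0732) did not pass. Of Gpr34's host, Cask was called at D1 (-1.26, 0.0162) and was at 0.13 from D1 to D10 (0.795), where Gpr34 rose by 1.55.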

How the data were processed

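Single-cell RNA libraries of sorted spinal cord myeloid cells were deposited by the authors as UMI count matrices, 1 per library, unnormalised, made with Cell Ranger 3.1.0 on GRCm38 (mm10) per the submitters' processing notes. The authors' deposited cell table gives total counts, cluster and an unnamed cell type code. How cells were filtered is not given in the sources used here, and no doublet caller was run. Matrices and cells were matched by library and barcode, and 0 per-sample columns were left unused. The deposited codes were named from marker genes.

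Counts were summed per library and cell type (at least 20 cells), genes were filtered with filterByExpr, and sums were tested with edgeR 4.0.16 (TMM, quasi-likelihood test, R 4.3.3, limma 3.58.1) with Benjamini-Hochberg adjustment over all genes tested and a threshold of 0.05. Microglia and macrophages were fitted with terms for time point and for the sex the labels give, microglia over 17 sums of 135097 to 7794902 UMIs, macrophages over 15 sums of 235999 to 22068469 UMIs, and pairs of cell types with library as a block. DESeq2 1.42.0 was an alternative. Levels are CPM of all UMIs. Shares of cells used cells thinned to 1500 UMIs, in Python 3.11.15. The edgeR procedure was tested on simulated data.

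Genes named are the 6 members, at most 3 genes per list and direction in microglia at D1 against Ctrl and at D10 against D1, and the 5 genes most like each member. Single marker genes, Cask, which hosts Gpr34, and Med12l in neutrophil-like cells are named besides and were chosen after their values were seen. The members and lists were chosen with earlier results of these data known. Alternatives covered scaling, tool, filter, minimum cells, equal depth, clusters left out, time point alone, pool and sort terms, a replicate block and leaving out each library. The D3 library with conflicting labels was left out.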

Additional observations from a re-analysis of the deposited data

Results flagged for a closer look

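In microglia at D3, P2ry13 was at 52.2 CPM in D3_mixed 3, below the 109 to 123 CPM of the other 4 D3 libraries, and its gap to the nearest of them was large against the range of the group. It was the only such library among 18 groups of 4 or 5 libraries tested, where chance gives about 1 in 20.

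For Gpr34, the difference between macrophages and microglia of the same library was 2.92 higher on the log2 scale at D10 than at D1 to D3 (edgeR adjusted p 0.0162), a tested difference between time points. It was 1.63 (0.105) with at least 50 cells per sum and 1.68 (0.0527) without cluster 2. Gpr34 was at 4.24 and 12.2 CPM in macrophages of D1_mixed 1 and D1_mixed 3, and at 38.8 to 141 in those of the 4 D10 libraries.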

How the results depend on the processing

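The number of the 6 members called stayed within 1.5 times its value, or a share of cells within 1 SD, in 409 recomputed values. In 52 others more members were called and in 41 fewer, and 8 shares moved by more. Counts of members called under the other settings were as follows. Against Ctrl in microglia, D1 gave 1 with mixed libraries alone (1 control library), D2 gave 3 with clusters 6, 7 and 10 left out, with a pool term and with mixed libraries alone, and D3 gave 3, 0 and 0 under the same 3 settings. D10 gave 4 with library totals alone, 5 with a pool term and 0 with mixed libraries alone. D21 gave 4 with library totals alone, 2 with DESeq2, without a filter and without D3_mixed 1 and 2, and 1 at equal depth, by time point alone, with a sort term and with mixed libraries alone. D3 against D1 gave 2 with library totals alone, DESeq2, no filter, clusters 6, 7 and 10 left out and D3_mixed 1 and 2 left out. D10 against D1 gave 2 at equal depth, where P2rx4 was at 1.12 (edgeR adjusted p 0.0871). D10 against D3 gave 2 with DESeq2 and without a filter, and 1 with median-of-ratios scaling, at least 50 cells, cluster 2 left out, time point alone and a sort term.

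In macrophages, D10 against D1 gave 4 without clusters 6, 7 and 10, and 1 with library totals alone, at least 50 cells, equal depth, cluster 2 left out and clusters 2 and 3 left out. D21 against D1 gave 4 without clusters 6, 7 and 10, 2 with DESeq2, no filter, the conflicting library added and time point alone, and 0 with a pool term, mixed libraries alone and clusters 2 and 3 left out. D10 against D3 gave 3 with the conflicting library added and with mixed libraries alone, 2 without clusters 6, 7 and 10, and 1 with DESeq2 and no filter. The change of the macrophage-microglia difference gave 3 with DESeq2 and no filter, 2 with the other scalings and 0 with at least 50 cells. At equal depth, within-library comparisons gave 2 (macrophages and microglia at D10), 1 (dendritic-like) and 0 (neutrophil-like), but fewer members passed the count filter at equal depth. P2rx7 was not tested in microglia over time, nor P2ry12, P2ry13 and P2rx7 in macrophages over time. In the within-library comparisons P2ry13 and P2rx7 were not tested in the first, P2ry6 and P2rx4 alone in the second and P2ry6 alone in the third (-0.72, edgeR adjusted p 0.0797). P2rx7 in microglia at D3 against Ctrl turned to 0.16 (edgeR adjusted p 0.953) with a pool term. In each case the cause was not tested. Library totals alone and the settings that leave out D3_mixed 1 and 2 or clusters 2 and 3 were chosen after the data were seen.

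Leaving out 1 library at a time gave 4 to 5 members called at D1, 1 to 6 at D2, 1 to 5 at D3, 0 to 2 at D10 and 0 to 2 at D21 against Ctrl, 1 to 3 at D3 and 2 to 5 at D10 against D1, and 0 to 2 at D10 against D3. In macrophages it gave 1 to 2 at D10 and 0 to 2 at D21 against D1 and 0 to 1 at D10 against D3, and for the change of the difference 1 to 3. The share of microglia with a P2ry12 UMI was 7.54% and 24.8% at D1 and 26.2% and 47.6% at D10 with 1000 UMIs per cell and without thinning, and that of Gpr34 79.9% and 97.2% in controls and 45.5% and 71.2% at D10.

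Deviations of same-numbered mixed libraries correlated at -0.20 to 0.12 and those of differently numbered ones at -0.21 to 0.21. The deviations were taken about means of very few libraries, so they cannot show whether a replicate number marks a shared origin. With a replicate block, D3 against D1 called 1 member (P2ry12 2.31, edgeR adjusted p 0.00106), D10 against D1 4 (P2ry12 1.93, 0.00185) and D10 against D3 0, and no member's call changed. The block moved all genes called at D3 against D1 from 2030 to 1260.

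The number of all genes called fell at equal depth from 5034 to 1566 at D1 against Ctrl and from 3638 to 641 at D10 against D1, and with a pool term from 4064 to 255 at D3 against Ctrl. At D10 against Ctrl it rose from 1111 to 2404 with a pool term and to 2655 with library totals alone. With mixed libraries alone it was 1206 at D1 and 71 at D10 against Ctrl, from 1111 at D10. Depth limits the members with few counts, such as P2rx4 and P2rx7 in D2_mixed 2 (3 counts each) and Gpr34 in macrophages at D1 (7 counts).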
